A study of Homo sapiens with 9 samples.

Results

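The genes described here are SLC7A11, CTH, GCLC, GCLM, GSS, GSR, GLRX, GSTP1 and CHAC1, which import cystine or make, recycle, use and break down glutathione. They were chosen by name for these roles, with earlier results of these data known. All 9 were found, each in a single row, among the 62710 genes measured by RNA-seq in A375R cells. A375R is a human melanoma cell line resistant to the BRAF kinase inhibitor PLX4032, and the inhibitor is kept in its culture medium. Cells received 10 µM R4VPL3-1, a PROTAC-like molecule that joins a ligand of the ubiquitin ligase RNF4 to a VHL-binding moiety, or VHL-r, which is that moiety without the RNF4 ligand, also at 10 µM, or DMSO as the control, with an exposure of 2 h. Each of the 3 treatments had 3 biological repeats of this line. The control libraries are named WT with no dose in the sample labels, and the series' design names DMSO as the control condition.

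Glutathione is the main low-molecular-weight thiol of animal cells and is built from glutamate, cysteine and glycine. Cysteine, the usual limiting building block, comes from imported cystine or from methionine through transsulfuration. Glutathione peroxidase GPX4 uses glutathione to reduce lipid peroxides, and ferroptosis is the form of cell death that follows when these peroxides build up.

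With R4VPL3-1, CHAC1, CTH and GCLM rose against both VHL-r and DMSO. CHAC1, which degrades glutathione, was 3.20-fold higher than with VHL-r and 6.11-fold higher than with DMSO. CTH, the last enzyme of transsulfuration, was 1.59-fold and 2.68-fold higher, and GCLM, a subunit of the rate-limiting enzyme of synthesis, was 1.44-fold and 1.48-fold higher in the same comparisons. GCLC, the catalytic partner of GCLM, rose 1.37-fold with VHL-r alone and 1.43-fold with R4VPL3-1. SLC7A11 rose 1.21-fold with R4VPL3-1 against DMSO and did not pass the test against VHL-r. GSS, GSR, GLRX and GSTP1 passed in none of the 3 comparisons.

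Of the 9 genes, 3 were called higher and 0 lower with R4VPL3-1 against VHL-r, at an adjusted p of at most 0.05 in limma. Among all 15230 genes tested, 1.14% were called higher and 0.729% lower in that comparison. Against DMSO, 5 of the 9 were called higher and 0 lower with R4VPL3-1, beside 13.1% higher and 11.8% lower among all genes. With VHL-r against DMSO, 3 were called higher and 0 lower, beside 10.3% higher and 9.51% lower among all genes. The median log2 fold change of the 9 genes was 0.072, 0.27 and 0.040 in these comparisons in turn, and that of all genes was -0.0056, -0.0063 and -0.0045. Each pair of comparisons shares the 3 libraries of a treatment, DMSO, VHL-r or R4VPL3-1, so the values of the 3 comparisons are not independent of each other. Because the 9 genes were chosen with earlier results known, these counts are a description and no test of the set against other genes.

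**Figure D1:**
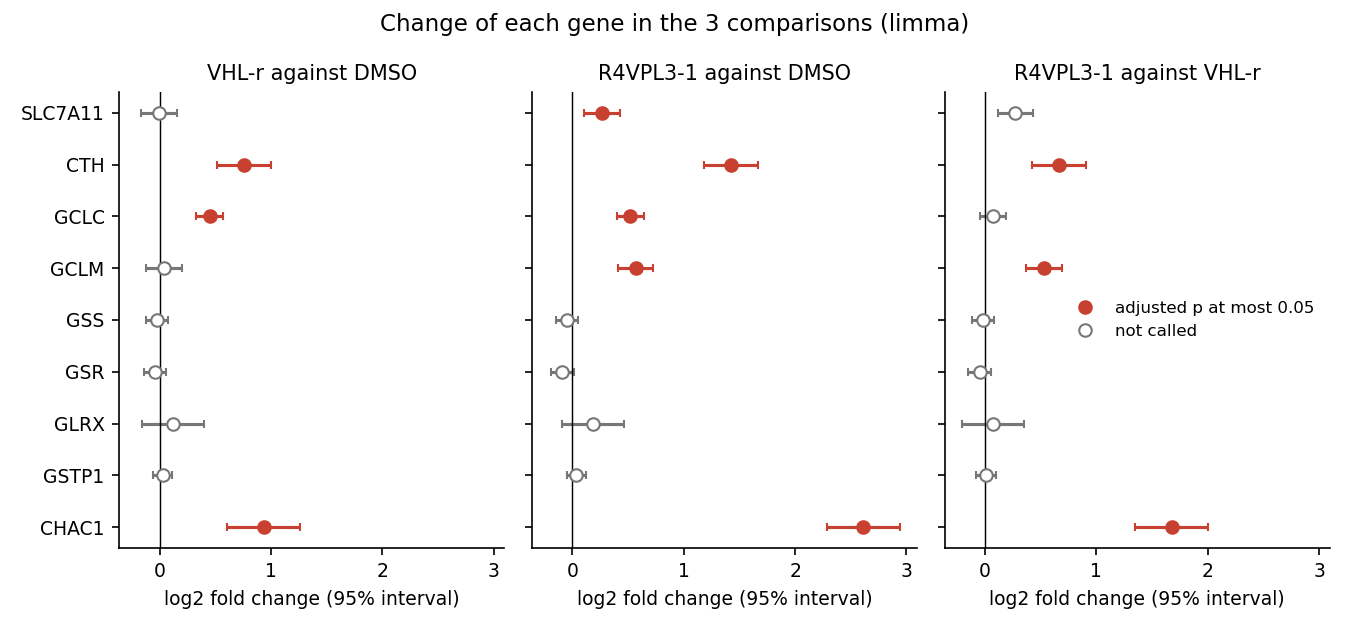
Log2 fold change of each of the 9 genes (rows) in the 3 comparisons (panels), with the 95% interval of the limma fit as a bar and filled red points for an adjusted p of at most 0.05. CHAC1 lies farthest right in each panel, at 0.94, 2.61 and 1.68, GCLC is called in both comparisons with DMSO but not between the compounds, and GCLM is called in both comparisons that involve R4VPL3-1.

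The values are normalized counts, the reads of a gene divided by the size factor of its library. The reads recovered from them summed to between 26435568 and 32085626 per library, and no pair of libraries of a treatment was alike enough to be a single library deposited again. Among the 9 genes the fewest reads were 108 for CHAC1, 128 for CTH and 187 for GLRX, where counting alone gives a spread of 9.62%, 8.84% and 7.31%. Of the melanocyte markers, SOX10 was at 7900.37 to 17934.67, MITF at 893 to 1994 and DCT at 914 to 1782, whereas MLANA was listed at 0 in all 9 libraries, TYR at 0 to 2.14 and PMEL at 20.9 to 36.8. AXL, a marker of dedifferentiated melanoma, was at 9240.19 to 12114.45. In bulk RNA, fewer cells that express a gene and less of its RNA per cell cannot be told apart.

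The promoter letters of GCLM, CHAC1 and GSTP1 are shown because a motif was found in each, beside a change in GCLM and CHAC1 and none called in GSTP1. RefSeq promoter windows of GRCh38, from 250 bases before to 50 bases after the start site, were on hand for 6 of the 9 genes, CTH, GCLC, GCLM, GLRX, GSTP1 and CHAC1. They were searched on both strands for TGACNNNGC, the core of the antioxidant response element bound by NRF2, for TGATGNAA, the core of the C/EBP-ATF response element bound by ATF4, and for the AP-1 site TGANTCA. The 30-base windows below are written 5′ to 3′ on the strand of the gene, with the matched letters in capitals.
GCLM, chr1:93909445-93909474, minus strand: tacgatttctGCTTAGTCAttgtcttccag
CHAC1, chr15:40953251-40953280, plus strand: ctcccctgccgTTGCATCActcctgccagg
GSTP1, chr11:67583736-67583765, plus strand: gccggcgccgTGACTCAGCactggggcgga

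In GCLM the match to TGACNNNGC began 34 bases before the start site and is read on the opposite strand. The GSTP1 match to the same motif began 66 bases before the start site on the gene's own strand, and the AP-1 match of GSTP1 lies within its letters. For CHAC1 the match to TGATGNAA began 209 bases before the start site and is read on the opposite strand. The matches of GSTP1 and CHAC1 lie in the untranslated region of a longer annotated transcript of the gene, and that of GCLM lies upstream of the annotated gene except for its last base. The promoters of CTH, GCLC and GLRX held none of the 3 motifs within these windows. Among all 35116 promoters of the same length, 13.3% held TGACNNNGC, 3.62% held TGATGNAA and 7.71% held TGANTCA. A match of letters is a description of the sequence and no measurement of binding.

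Import of cystine was represented by SLC7A11, the exchanger subunit of system xc- that takes up cystine for glutamate (chr4:138164097-138242349, minus strand, GRCh38). Its normalized counts were 671, 689 and 714 in DMSO replicates 1, 2 and 3, 669, 667 and 732 with VHL-r, and 949, 767 and 793 with R4VPL3-1. All R4VPL3-1 libraries lay above all others, and replicate 1 stood apart from the other R4VPL3-1 libraries. The means were 691 ± 21.5 (SD, n = 3), 690 ± 37.0 and 836 ± 98.2. Against DMSO, R4VPL3-1 raised SLC7A11 by 0.27 on the log2 scale (SE 0.077, limma adjusted p = 0.0133). Without R4VPL3-1 replicate 1 this change was 0.17 and the call was lost (adjusted p = 0.121). Against VHL-r the difference was 0.27, with a 95% interval of 0.11 to 0.43, and did not pass the test (adjusted p = 0.0831). With VHL-r against DMSO it was -0.0042, with a 95% interval of -0.17 to 0.16, and its sign turned under upper quartile scaling, to 0.0039.

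SLC3A2, the heavy chain that carries SLC7A11 to the cell surface, was at 14125.8, 13048 and 12353 with DMSO, 13858, 14599 and 14281 with VHL-r, and 15529.96, 16483 and 14179 with R4VPL3-1. It rose by 0.22 on the log2 scale with R4VPL3-1 against DMSO (limma adjusted p = 0.00357), but the difference from VHL-r, 0.11, did not pass (adjusted p = 0.517). Among the 6 tested genes of cystine and cysteine transport outside the 9, 0 were called in either direction between the compounds. Of all genes, 1.14% were called higher and 0.729% lower in that comparison. SLC1A5, a neutral amino acid exchanger, rose with both compounds against DMSO, by 0.16 with R4VPL3-1 and 0.17 with VHL-r. Its relative SLC1A4 fell by 0.20 with R4VPL3-1 against DMSO. Against DMSO, 13.1% of all genes were called higher and 11.8% lower with R4VPL3-1, and 10.3% were called higher with VHL-r.

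The other route to cysteine runs through CTH, cystathionine gamma-lyase, which releases cysteine from cystathionine (chr1:70411218-70439851, plus strand). CTH was at 159, 126 and 169 with DMSO, at 253, 243 and 267 with VHL-r and at 457, 395 and 366 with R4VPL3-1. The 3 treatments did not overlap, and VHL-r lay between the others. The means were 151 ± 22.7 (SD, n = 3), 254 ± 12.4 and 406 ± 46.2. VHL-r raised CTH by 0.755 on the log2 scale against DMSO (SE 0.12, limma adjusted p = 6.48e-05), and R4VPL3-1 raised it by 1.42 (adjusted p = 8.64e-09). The compounds differed by 0.67, with a 95% interval of 0.42 to 0.91 (adjusted p = 0.00159).

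Of 8 other tested genes of the methionine cycle and transsulfuration, 1 was called higher with each compound against DMSO, and 0 were called in either direction between the compounds. Among all genes, 13.1% were called higher with R4VPL3-1 and 10.3% with VHL-r against DMSO. The shares of all genes between the compounds were 1.14% higher and 0.729% lower. The called gene was MAT2A, which makes S-adenosylmethionine from methionine. MAT2A was at 13241 to 13660.4 with DMSO, 16247 to 16653 with VHL-r and 16889 to 17814 with R4VPL3-1, and it rose by 0.30 and 0.37 on the log2 scale with the compounds in turn. CBS, the enzyme before CTH in transsulfuration, was low in every library, between 24.6 and 52.2 normalized counts, and its difference between the compounds was -0.27 with a 95% interval of -0.79 to 0.24.

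Synthesis starts with glutamate-cysteine ligase, whose catalytic subunit is GCLC and whose modifier subunit is GCLM. GCLC (chr6:53497341-53616970, minus strand) was at 1509, 1619 and 1514 with DMSO, 2198, 2119 and 2025 with VHL-r, and 2407, 2161 and 2099 with R4VPL3-1. All libraries of either compound lay above the DMSO libraries, and the compounds overlapped each other. The means were 1547.5 ± 62.3 (SD, n = 3), 2114 ± 86.5 and 2222.5 ± 163. GCLC rose by 0.45 on the log2 scale with VHL-r (SE 0.057, limma adjusted p = 6.81e-06) and by 0.52 with R4VPL3-1 (adjusted p = 6.63e-07), each against DMSO. Between the compounds the difference was 0.071, with a 95% interval of -0.049 to 0.19 (adjusted p = 0.819). GCLC was the only one of the 9 genes with exon bases shared with another gene on its strand, 6.14% of them, and reads that lie on both genes are assigned to neither.

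GCLM (chr1:93885199-93909456, minus strand), whose promoter holds the TGACNNNGC match shown above, was at 2056, 2034 and 1949 with DMSO, 2237, 2186 and 1811 with VHL-r, and 3374, 2929.98 and 2685 with R4VPL3-1. VHL-r overlapped DMSO, and the R4VPL3-1 libraries lay above both. The means were 2013 ± 56.4 (SD, n = 3), 2078 ± 233 and 2996 ± 349. R4VPL3-1 raised GCLM by 0.53 on the log2 scale against VHL-r, with a 95% interval of 0.37 to 0.69 (limma adjusted p = 0.000196), and by 0.57 against DMSO (adjusted p = 8.5e-06). VHL-r against DMSO gave 0.040, with a 95% interval of -0.12 to 0.20 (adjusted p = 0.784). The catalytic subunit was called with VHL-r and the modifier subunit was not, and whether their changes differ from each other was not tested.

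GSS, glutathione synthetase, adds glycine in the last step of synthesis (chr20:34928432-34956027, minus strand). It was at 2577, 2591 and 2468 with DMSO, 2416, 2515 and 2571 with VHL-r, and 2384, 2526 and 2490.17 with R4VPL3-1, and the 3 treatments overlapped. Its log2 difference between the compounds was -0.020 with a 95% interval of -0.12 to 0.080, and its change with R4VPL3-1 against DMSO was -0.046 with an interval of -0.14 to 0.054 (limma adjusted p = 0.543).

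Recycling of oxidized glutathione was represented by GSR, glutathione reductase (chr8:30678066-30727846, minus strand), at 2286.5, 2295 and 2201 with DMSO, 2289, 2189 and 2112 with VHL-r, and 2197, 2106 and 2068 with R4VPL3-1. All R4VPL3-1 libraries lay just below all DMSO libraries, yet the change of -0.090 on the log2 scale, with a 95% interval of -0.19 to 0.013, did not pass the test (limma adjusted p = 0.203). Between the compounds the difference was -0.048, with an interval of -0.15 to 0.055. GSR spends NADPH, and among 7 tested genes that supply NADPH, 0 were called between the compounds, 2 were called higher with R4VPL3-1 against DMSO and 1 with VHL-r. The shares called higher among all genes against DMSO were 13.1% with R4VPL3-1 and 10.3% with VHL-r. Between the compounds, 1.14% of all genes were called higher and 0.729% lower. IDH1, the cytosolic isocitrate dehydrogenase, rose by 0.27 with R4VPL3-1 and 0.26 with VHL-r on the log2 scale, and PGD of the pentose phosphate pathway rose by 0.14 with R4VPL3-1.

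GLRX, glutaredoxin, removes glutathione from protein thiols (chr5:95751319-95822726, minus strand). Its normalized counts were 193, 246 and 209.91 with DMSO, 187, 246 and 276 with VHL-r, and 249, 219 and 269.79 with R4VPL3-1. The spread within each treatment was as wide as the distances between them. The interval of the difference between the compounds, -0.21 to 0.35 on the log2 scale around 0.072, was the widest of the 4 genes that were called in no comparison.

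GSTP1, the pi-class glutathione transferase, couples glutathione to electrophiles (chr11:67583742-67586656, plus strand). It was at 9423, 9014 and 9236 with DMSO, 9100.49, 9332 and 9749 with VHL-r, and 9270.17, 9781 and 9329 with R4VPL3-1. The treatments overlapped, and the difference between the compounds was 0.010 with a 95% interval of -0.077 to 0.098 (limma adjusted p = 0.979). The promoter of GSTP1 holds the same motif as that of GCLM.

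Of 12 transferases other than GSTP1 that were tested, 1 was called higher with R4VPL3-1 against DMSO, namely GSTM3, which rose by 0.36 on the log2 scale from between 411 and 436 to between 527 and 553. Of 3 other glutaredoxins, 1 was called in the same comparison, GLRX2, a mitochondrial glutaredoxin, which rose by 0.16. Among all genes, 13.1% were called higher there. No gene of either list was called between the compounds, beside 1.14% of all genes called higher and 0.729% lower. Among the glutathione peroxidases, 3 of 6 passed the filter and 0 were called in any comparison, including GPX4, at 2174 to 2316 with DMSO, 2152 to 2562 with VHL-r and 2213 to 2379.8 with R4VPL3-1. GPX1, GPX2, GGT1, GGT6, GSTM1 and GSTT2B were listed at 0 in all libraries. Other genes on the same strand cover 39.9% of the exon bases of GPX1, 56.5% of those of GGT1 and 22.25% of those of GSTM1. For GPX2, GGT6 and GSTT2B this share was 0%. The reason for the values of 0 was not tested for any of these genes, with or without such an overlap.

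CHAC1, gamma-glutamylcyclotransferase, cleaves glutathione inside the cell and is a known target of the stress-response factors ATF4 and DDIT3 (chr15:40952962-40956512, plus strand). Its normalized counts were 146, 114 and 109.52 with DMSO, 205, 253 and 249 with VHL-r, and 981, 789 and 550.28 with R4VPL3-1. The 3 treatments did not overlap, and the lowest R4VPL3-1 library was above the highest VHL-r library. The means were 123.28 ± 19.98 (SD, n = 3), 236 ± 26.6 and 774 ± 216. R4VPL3-1 raised CHAC1 by 1.68 on the log2 scale against VHL-r, with a 95% interval of 1.35 to 2.00 (limma adjusted p = 5.74e-07), which placed it at rank 17 of 15230 genes by size of rise. Against DMSO the rise was 2.61 (SE 0.16, adjusted p = 7.26e-11, rank 26), and VHL-r alone gave 0.94 (adjusted p = 0.000158).

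CHAC1 also varied most within the R4VPL3-1 group, where its highest library was 1.78 times its lowest. R4VPL3-1 replicate 1 was the highest of its group in all 5 genes called against DMSO, CHAC1, CTH, GCLM, GCLC and SLC7A11, and replicate 3 was the lowest in 4 of them, all but SLC7A11. GSR, which was not called, also had replicate 1 highest and replicate 3 lowest, whereas GSS, GLRX and GSTP1 had another replicate highest. Without replicate 1 the CHAC1 difference from VHL-r was 1.49, and without replicate 3 it was 1.90.

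CHAC2, the constitutive relative of CHAC1, was at 499 to 619.83 with DMSO, 473 to 558 with VHL-r and 474 to 511 with R4VPL3-1. Its difference between the compounds was -0.097 on the log2 scale, with a 95% interval of -0.28 to 0.083. Of 7 tested genes of glutathione breakdown other than CHAC1, 0 were called with either compound against the other. In that comparison, 1.14% of all genes were called higher and 0.729% lower. Only ANPEP, a peptidase of the cell surface, was called against DMSO, where it fell by 0.19 with R4VPL3-1, beside 11.8% called lower among all genes. Of 7 genes for glutathione export and mitochondrial import, 0 were called between the compounds. ABCC5, an organic anion exporter, rose by 0.51 with VHL-r and 0.59 with R4VPL3-1 against DMSO. ABCC1, which exports glutathione conjugates, rose by 0.16 with R4VPL3-1 against DMSO. The shares of all genes called higher against DMSO were 10.3% with VHL-r and 13.1% with R4VPL3-1. The pair of glyoxalases, GLO1 and HAGH, were called in none of the comparisons.

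Transcription factors and regulators of the pathway were the only list outside the 9 genes with calls between the compounds, 4 higher and 0 lower of 10 tested. Of all genes, 1.14% were called higher and 0.729% lower in that comparison. The other lists held 2 to 12 tested genes each, too few for a count of 0 to set them apart from all genes. The list of factors, like the others, was written with earlier results of these data known. ATF4, the main factor of the integrated stress response, was at 6425, 6186 and 6386 with DMSO, 7375, 7428 and 7756 with VHL-r, and 10208, 10081 and 9552 with R4VPL3-1, a difference of 0.40 on the log2 scale between the compounds (limma adjusted p = 2.62e-06). DDIT3, the stress factor CHOP, was at 289.67, 249 and 285 with DMSO, 366, 382 and 403 with VHL-r, and 1492, 1271 and 959 with R4VPL3-1, a difference of 1.67 (adjusted p = 3.84e-09). Both showed the order DMSO, VHL-r, R4VPL3-1 with no overlap, as CTH and CHAC1 did. ATF3, an early stress-response factor, was at 1071, 657 and 655 with DMSO, 819, 834 and 844 with VHL-r, and 3891, 2855 and 2130.46 with R4VPL3-1, a difference of 1.79 between the compounds (adjusted p = 3.86e-07). With VHL-r against DMSO, ATF3 did not pass, at 0.11 with an interval of -0.23 to 0.45.

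MAFF, a small partner of NRF2 on the antioxidant response element, rose by 0.36 with R4VPL3-1 against VHL-r (limma adjusted p = 0.00586), with a range of 1395 to 1463 for VHL-r and of 1668 to 1962 for R4VPL3-1. NFE2L2, the gene of NRF2, did not pass between the compounds, at -0.12, and fell by 0.26 with R4VPL3-1 against DMSO (adjusted p = 0.000365), from between 3676 and 4044 to between 3163.57 and 3334. MAFK, another small MAF, fell by 0.27 in that comparison. KEAP1, which marks NRF2 for degradation, was called in no comparison, nor was TRIB3, another known target of ATF4 and DDIT3. The difference of TRIB3 between the compounds was 0.0059 on the log2 scale, with a 95% interval of -0.14 to 0.15, beside 1.68 for CHAC1. Whether ATF4 or DDIT3 acted on either gene in these cells was not tested.

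Over all 10 lists, 79 genes were named outside the 9, of which 78 were in the table and 65 were tested. Between the compounds 4 were called higher and 0 lower, with a median log2 fold change of 0.031. With R4VPL3-1 against DMSO 13 were called higher and 4 lower, with a median of 0.036, and with VHL-r against DMSO 6 were called higher and 0 lower, with a median of 0.011. These counts, each out of 65 tested genes, stand beside the percentages of all genes given above for each comparison.

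**Figure D2:**
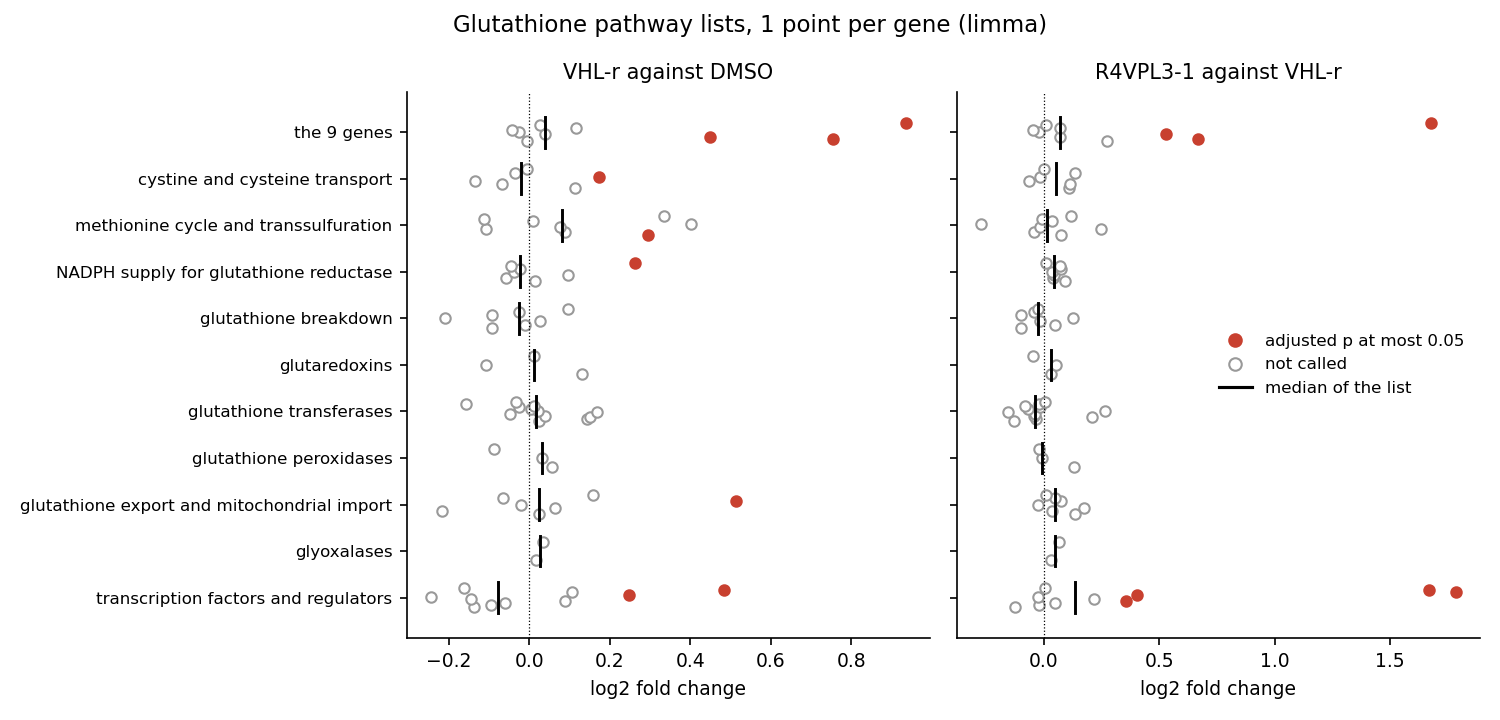
Log2 fold change of each tested gene (points) of the 9 genes and of the 10 pathway lists (rows) with VHL-r against DMSO and with R4VPL3-1 against VHL-r, red where the adjusted p was at most 0.05, with the median of each list as a black bar and a separate scale in each panel. In the right panel the called genes lie in the top row, 3 of the 9 genes, and in the bottom row, 4 of 10 transcription factors and regulators.

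Per kilobase of merged exons, which allows a rough comparison of levels between genes, the 9 genes spanned a wide range. The merged exons take in every annotated transcript, 28 for GSS over 6166 bases and 3 for CHAC1 over 2051 bases. Orders and percentiles between genes therefore depend on the annotation, and which transcripts these cells express was not tested. With DMSO the mean normalized count per kilobase was 5229 for GSTP1, 628 for GSR, 413 for GSS, 371 for GCLM, 179.6 for GCLC, 71.7 for SLC7A11, 62.7 for CTH, 60.1 for CHAC1 and 34.7 for GLRX. GSTP1 was at percentile 98.9 of all tested genes with an exon length, and GLRX at percentile 31.7. The DMSO ranges of SLC7A11 and CTH overlapped, as did those of CTH and CHAC1, and all other neighbours in the order were separate. With VHL-r, CHAC1 at 115 and CTH at 105 lay above SLC7A11 at 71.5, and CHAC1 and CTH overlapped, as did GSS and GCLM.

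With R4VPL3-1 the order changed further. CHAC1, in place 8 with DMSO, was in place 5 at 377 normalized counts per kilobase (268 to 478.5), and its range overlapped those of GSS at 400.0 and GCLC at 258. GCLM, at 552, moved past GSS and overlapped GSR at 589.6. SLC7A11, at 86.7, was in place 8, below CTH at 168.

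For the 3 genes called between the compounds, the tested genes with the most similar pattern over the 9 libraries were ranked by Pearson's r of the log2 values. These correlations are descriptions over libraries that share 3 treatments, and most of their size comes from the steps between treatments. CTH was most like FOS (r = 0.991), ZFP36 (r = 0.988) and SNHG7 (r = 0.987). FOS, an immediate early gene, had means of 158, 489.52 and 1063 with DMSO, VHL-r and R4VPL3-1. CHAC1 was most like CLK1 (r = 0.990), ATF4 (r = 0.9896) and BAG3 (r = 0.9895). CLK1 encodes a kinase of splicing factors, with means of 935, 1374 and 2603, and BAG3 encodes a co-chaperone of HSP70, with means of 3332.5, 4388 and 9136. GCLM was most like a pair of genes without a symbol, ENSG00000230074 (r = 0.976) and ENSG00000291201 (r = 0.972), and then like CHORDC1 (r = 0.9696), an HSP90-binding protein with means of 4538, 4509 and 5602.

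Among the 9 genes themselves, CTH and CHAC1 had the highest r, 0.958, followed by GCLM and CHAC1 at 0.898. GCLC was closer to CTH, at 0.882, than to its partner GCLM, at 0.667. Pairs among GSS, GSR, GLRX and GSTP1 lay between -0.674 and 0.317.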

How the data were processed

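Poly(A) RNA of 9 libraries, 3 per treatment, was sequenced by the authors as stranded single reads, aligned to GRCh38 with STAR and counted per gene by htseq-count, which leaves out reads on more than 1 gene of a strand. The deposited values are a normalized signal, counts divided by the DESeq2 (1.36.0) size factor of each library, with 2 decimals. Unused value columns numbered 0. Dividing by the worth of 1 read gave whole reads for 100% of values in each library (tolerance 0.1 read), 26435568 to 32085626 in total.

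limma (3.58.1, R 4.3.3) with its trend option was fitted to log2(value + 1) of all 9 libraries with treatment as the single factor. It covered 15230 genes whose mean over the libraries was 10 or more. Fold changes are on this scale, which understates low genes, and p was adjusted by Benjamini-Hochberg over all genes tested, separately in each of the 3 comparisons, of which 1 sets the compounds against each other. The fit was tested on simulated data with the same dispersion for every gene and no replicate effects. That test checks the calculation and does not bear on the spread of these libraries. A rank comparison of 3 against 3 libraries cannot go below p = 0.1 in an exact permutation test, so none is given.

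Alternatives were pseudocounts of 0.1 and 5, no filter, a mean of at least 50, TMM and upper quartile scaling, limma's robust setting, a threshold of 0.01 on the adjusted p, a replicate block, a fit of only the 6 libraries being compared, and leaving out each library. Recovered reads were also tested with DESeq2 (1.42.0) and with edgeR (4.0.16). On recovered reads edgeR called 297 genes between the compounds, 3857 with R4VPL3-1 against DMSO and 3034 with VHL-r against DMSO.

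Named genes are the 9 genes, genes of the 10 pathway lists that were called or have a defining role, and the 3 genes most like each of the 9 that was called between the compounds. The genes and lists were chosen with earlier results of these data known. Coordinates are those of the deposited table. Exon lengths and overlaps came from GENCODE on GRCh38, matching 15221 of the 15230 genes, and promoters from RefSeq (GRCh38.p14).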

Additional observations from a re-analysis of the deposited data

How the results depend on the processing

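Of 540 values of the 9 genes under the alternatives, 525 kept their direction and their side of the threshold. The calls of CHAC1, CTH and GCLM between the compounds, of CHAC1, CTH, GCLC and GCLM with R4VPL3-1 against DMSO, and of CHAC1, CTH and GCLC with VHL-r against DMSO held with every alternative fit and every library left out. The call of SLC7A11 with R4VPL3-1 against DMSO was lost without R4VPL3-1 replicate 1 (0.17, limma adjusted p = 0.121) and at a threshold of 0.01, where 4 of the 9 genes were called. With SLC7A11 between the compounds the adjusted p ranged from 0.0563 to 0.573 over the alternatives without a replicate block, and with a replicate block it was 0.0474. The replicate block called 4, 5 and 3 of the 9 genes between the compounds, with R4VPL3-1 against DMSO and with VHL-r against DMSO, and 4, 19 and 10 of the pathway genes, and it changed no other call of the 9 genes. Deviations of same-numbered libraries from their treatment means correlated between -0.0056 and 0.121, and those of different-numbered libraries between -0.148 and 0.0982. The numbers were not taken as pairs in the main fit, although these overlapping ranges cannot show that pairing is absent.

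Values that turned sign were all from comparisons in which the gene was not called. For SLC7A11 with VHL-r against DMSO the change was 0.0039 with upper quartile scaling, 0.00099 in edgeR, and between -0.048 and 0.019 with a library left out. The ranges with a library left out were -0.016 to 0.14 for GCLM, -0.0035 to 0.27 for GLRX and -0.0011 to 0.048 for GSTP1 with VHL-r against DMSO, and -0.044 to 0.0049 for GSS, -0.086 to 0.19 for GLRX and -0.014 to 0.037 for GSTP1 between the compounds. The count of pathway genes called with VHL-r against DMSO ranged from 5 to 10 with a library left out, and was 10, 6 higher and 4 lower, without DMSO replicate 3. The cause was not tested. TMM and upper quartile scaling moved the median of all genes by at most 0.018 on the log2 scale.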
